A study of Mus musculus with 6 samples.

Results

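The neurotrophins and their receptors were examined as 7 genes, namely the ligands Bdnf, Ntf3 and Ntf5, the receptors Ngfr, Ntrk2 and Ntrk3, and the sorting receptor Sort1. Members were all probes of the array whose gene name equals one of these symbols, which gave 13 of 55681 probes and 7 of 36163 gene names. The samples were GFP+ and GFP- fractions of LSC cells from the prostate of 6-day-old (P6) male mice, and 3 arrays were hybridised per population. All mice were transgenic (Tg) 11.5kb-GFP animals of the FVB/N strain, in which the s-SHIP promoter drives green fluorescent protein, and no treatment was given. LSC cells are lineage-negative, Sca-1+, CD49f+ cells, a gate that holds the basal prostate epithelium. According to the study's methods, lineage-positive cells were those with CD31, CD45 or TER119. The gate is thus meant to remove endothelial cells, leukocytes and erythroid cells and names no marker of nerve or glia. The study assigns the Sca-1+ CD49f- fraction to stroma and describes the LSC fraction as CD24+ epithelium. It also describes strong GFP in smooth muscle cells of prostate blood vessels, with little or no Sca-1 and CD49f on them. The populations thus share the transgene, strain, sex, age and surface gate and differ in the GFP gate, whose setting for the array samples was not given in the sources used here. The labels do not name the animals of each sample, so p values measure the spread between these samples.

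Neurotrophins are secreted growth factors best known for the survival and growth of neurons, and they are also made outside the nervous system. Each binds a Trk receptor tyrosine kinase, BDNF and neurotrophin-4 (the product of Ntf5) mainly TrkB (Ntrk2) and neurotrophin-3 (Ntf3) mainly TrkC (Ntrk3). Both Ntrk2 and Ntrk3 also give truncated forms, which keep the ligand-binding part and the membrane span but have a short tail in place of the kinase. All neurotrophins bind the p75 receptor (Ngfr), a member of the tumour necrosis factor receptor family, and their proforms bind p75 together with sortilin (Sort1). In prostate, p75 is known as a protein of basal epithelial cells.

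Because the Trk genes give several forms, a value belongs to the end of the transcript that its probe reads. The coding probes of these receptors are shown here since the results differ between them. Each is 60 bases long, is written 5′ to 3′ in the sense of the transcript as the array design gives it, and has in capitals the TAA stop codon of truncated TrkC, the codons of the Asp-Phe-Gly motif of the TrkC kinase, or the codons around the tyrosine near the TrkC carboxyl end that docks phospholipase C gamma.
Ntrk3 truncated end, A_55_P2006808: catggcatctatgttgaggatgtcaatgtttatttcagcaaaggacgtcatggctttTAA
Ntrk3 kinase core, A_55_P2056533: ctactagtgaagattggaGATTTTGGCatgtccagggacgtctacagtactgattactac
Ntrk3 kinase carboxyl end, A_66_P118329: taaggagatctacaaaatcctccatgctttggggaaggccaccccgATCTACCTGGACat
Ntrk2 shared part, A_55_P2006792: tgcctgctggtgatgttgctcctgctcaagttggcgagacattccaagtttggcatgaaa
The last of these has no capitals. It reads the membrane span and the residues next to it, which full-length and truncated TrkB share, and the array design lists it under both transcripts.

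On the minus strand of chromosome 7 (mm9), the truncated-end probe of Ntrk3 lies at chr7:85447515-85447574 and ends on the stop codon. A second probe of the same truncated transcript, A_52_P500274 at chr7:85445908-85445967, starts 1607 bases further on both in the genome and in the transcript, so that no intron parts them and the second probe lies in the 3′ untranslated region (UTR). The kinase core probe (chr7:85392044-85392103) and the carboxyl-end probe (chr7:85337455-85337514) belong to the full-length transcript, 338 bases apart in it and 54589 bases apart in the genome. For Ntrk2, on the plus strand of chromosome 13, the shared probe lies at chr13:58979563-58979622. A probe near the 3′ end of the truncated transcript variant 2, A_65_P04961, lies at chr13:59038046-59038105, and one near the 3′ end of the full-length transcript, A_51_P393454, at chr13:59230936-59230995.

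Signals are given as log2 of the processed signal minus the array's own 75th percentile, so 0 is the level of that percentile, and levels of different probes are not compared. To be tested, a probe had to be marked by the scanner software as well above background throughout at least 1 population (3 of 3 arrays), which held for 10 of the 13 probes and 6 of the 7 genes. Of these 10 probes, 3 were called, meaning that the limma fit put them under 0.05 before adjustment for multiple tests. Over all 37005 tested probes 7.9% were called. The study had already described Ntrk3 as down-regulated in LSC GFP+ cells from these same data, so the count of calls in this family is not independent of them. The Ntf5 probe was higher in LSC GFP+ cells, against 3.38% of all probes in that direction, and the truncated-end probes of Ntrk2 and Ntrk3 were lower, against 4.53%. None of the 10 passed after Benjamini-Hochberg adjustment over all probes, where 1 probe of 37005 did (0.0027%). With the replicate number in the fit as a block, 5 of the 10 were called, against 14.8% of all probes. The median difference (LSC GFP+ minus LSC GFP-) was -0.32 over the 10 member probes and -0.0044 over all tested probes.

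**Figure D1:**
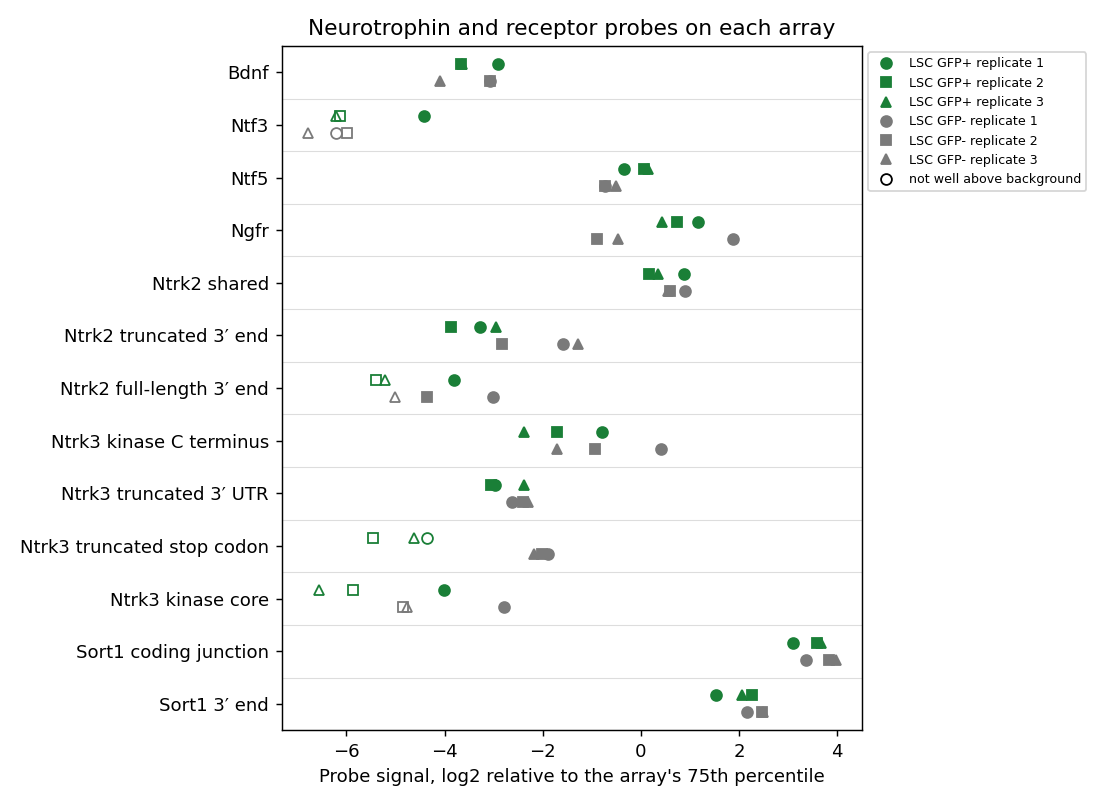
Signal of each of the 13 member probes (rows) on each array, in log2 relative to the array's 75th percentile, with LSC GFP+ in green above LSC GFP- in grey and a symbol per replicate. Open symbols are not well above background, and the populations part at Ntf5, at the truncated 3′ end of Ntrk2 and at the truncated stop codon of Ntrk3.

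Among the ligands, Ntf5 was higher in LSC GFP+ cells, Bdnf was near its LSC GFP- level and Ntf3 was largely below background. Ntf5 encodes neurotrophin-4, a TrkB ligand, and its probe (A_52_P359819, chr7:52671758-52671817, plus strand) gave -0.35, 0.06 and 0.15 in LSC GFP+ replicates 1, 2 and 3. In LSC GFP- replicates 1, 2 and 3 it gave -0.73, -0.73 and -0.51. All 3 LSC GFP+ arrays were above all 3 LSC GFP- arrays, which is so, in either direction, for 12.3% of all probes. The difference was 0.61 ± 0.21 (SE, n = 3 per population), or 1.53-fold, with a limma adjusted p = 0.461 and an exact two-sided permutation p = 0.1, the smallest that 3 against 3 arrays can give. Leaving out 1 array ended the call for 4 of the 6 arrays, at a difference of 0.55 without replicate 2 and 0.51 without replicate 3 of LSC GFP+, and of 0.57 without replicate 1 and 0.57 without replicate 2 of LSC GFP-.

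The Bdnf probe (A_55_P2036303, chr2:109566961-109567020, plus strand) gave -2.91, -3.67 and -3.64 in LSC GFP+ and -3.08, -3.07 and -4.09 in LSC GFP- replicates 1, 2 and 3. These ranges overlapped and the difference was 0.01, with a 95% interval from -0.79 to 0.81 (limma adjusted p = 0.999). The interval does not leave out a change of 1.5-fold in either direction. The Ntf3 probe (A_55_P2021565, chr6:126051431-126051490, minus strand) was well above background only on LSC GFP+ replicate 1, at -4.42. On LSC GFP+ replicates 2 and 3 it was at -6.13 and -6.21 and on the LSC GFP- arrays at -6.22, -5.99 and -6.78, so it was not tested and no fold is given.

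The truncated end of Ntrk3 differed most between the populations of all member probes. At the stop-codon probe, LSC GFP- replicates 1, 2 and 3 gave -1.90, -2.02 and -2.19, all well above background. LSC GFP+ replicates 1, 2 and 3 gave -4.35, -5.45 and -4.62, none of them well above background. The populations did not overlap, as for 5.65% of all probes in that direction. In the main processing, the mean signal was at least 4.86-fold lower in LSC GFP+ cells, a bound set by the background and not by the spread. The limma adjusted p was 0.0654 and the exact permutation p = 0.1. The probe entered the test only through LSC GFP-, and the pattern of 0 LSC GFP+ and 3 LSC GFP- arrays well above background was found for 110 probes, 0.297% of those tested. Over the alternatives the adjusted p ran from 0.0284 to 0.349.

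The probe 1607 bases downstream in the same truncated transcript showed much less of a difference. Its signal was -2.97, -3.06 and -2.39 in LSC GFP+ and -2.63, -2.39 and -2.30 in LSC GFP- replicates 1, 2 and 3. The highest LSC GFP+ value lay among the LSC GFP- values, and the difference of -0.37 had a 95% interval from -0.92 to 0.19 (limma adjusted p = 0.874). Without LSC GFP+ replicate 3 it was -0.57 and called, the only 1 of 16 alternatives with a call, and under normexp it was -0.17. Within each array, the 3′ UTR probe minus the stop-codon probe was -0.73, -0.37 and -0.11 in LSC GFP- replicates 1, 2 and 3. In LSC GFP+ cells, where the stop-codon probe was not well above background, it was at least 1.39, 1.21 and 1.94, a bound added after seeing the data. The populations did not overlap with these bounds, at an exact two-sided permutation p = 0.1, the smallest possible here. This was 1 of 9 probe pairs compared, and with the measured values the p adjusted over them was 0.36.

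The carboxyl-end probe of the TrkC kinase gave -0.80, -1.72 and -2.39 in LSC GFP+ replicates 1, 2 and 3 and 0.41, -0.93 and -1.71 in LSC GFP- replicates 1, 2 and 3. The ranges overlapped because replicate 1 was high and replicate 3 low in both populations. The difference was -0.89 ± 0.58 (SE, n = 3 per population), not called, with a limma adjusted p = 0.867. Between arrays of the same replicate number, LSC GFP+ was lower by -1.21, -0.79 and -0.68, and with a replicate block it was called (adjusted p = 0.114). Without LSC GFP- replicate 3 the difference was -1.38 and called. It was -0.32 without LSC GFP- replicate 1 and -0.52 without LSC GFP+ replicate 3, neither called.

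The kinase core probe was well above background on replicate 1 of each population alone, at -4.02 in LSC GFP+ and -2.80 in LSC GFP-. It was not tested, and its other values were -5.86 and -6.56 in LSC GFP+ and -4.86 and -4.77 in LSC GFP-. The kinase carboxyl end minus the truncated 3′ UTR probe, a within-array contrast, differed by -0.53 between the populations (exact permutation p = 0.6). Against the stop-codon probe, which was not well above background in LSC GFP+ cells, the same end differed by 1.88 (exact permutation p = 0.2). The sign thus depended on the truncated probe used.

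At Ntrk2, the probe near the end of the truncated transcript was lower in LSC GFP+ cells and the shared probe was not called. The shared probe gave 0.88, 0.16 and 0.34 in LSC GFP+ and 0.90, 0.59 and 0.56 in LSC GFP- replicates 1, 2 and 3. These values overlapped, and the difference was -0.22 with a 95% interval from -0.79 to 0.35 (limma adjusted p = 0.996). The truncated-end probe gave -3.27, -3.87 and -2.96 in LSC GFP+ replicates 1, 2 and 3. In LSC GFP- replicates 1, 2 and 3 it gave -1.59, -2.83 and -1.29, each above every LSC GFP+ array. The signal was 2.76-fold lower in LSC GFP+ cells, a log2 difference of -1.46 ± 0.42 (SE, n = 3 per population), with a limma adjusted p = 0.331 and an exact permutation p = 0.1. With a replicate block its adjusted p was 0.0742.

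The Ntrk2 call was lost in the methods' t-test and without both arrays of replicate 1, where the difference was -1.35. Under normexp it was -0.79 and still called. The full-length 3′ probe of Ntrk2 was printed 10 times on each array and stayed dim, well above background on 1 LSC GFP+ and 2 LSC GFP- arrays. Its means were -3.80, -5.39 and -5.21 in LSC GFP+ and -3.00, -4.36 and -5.02 in LSC GFP- replicates 1, 2 and 3, with an SD between spots of 0.158 to 0.852. It was not tested. The shared minus the truncated-end probe differed by 1.24 between the populations (exact permutation p = 0.2), and the full-length 3′ minus the truncated-end probe, which rests on the dim full-length probe, by 0.79 (p = 0.6, exact permutation), so an unequal change of the TrkB forms was not shown at this number of arrays.

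**Figure D2:**
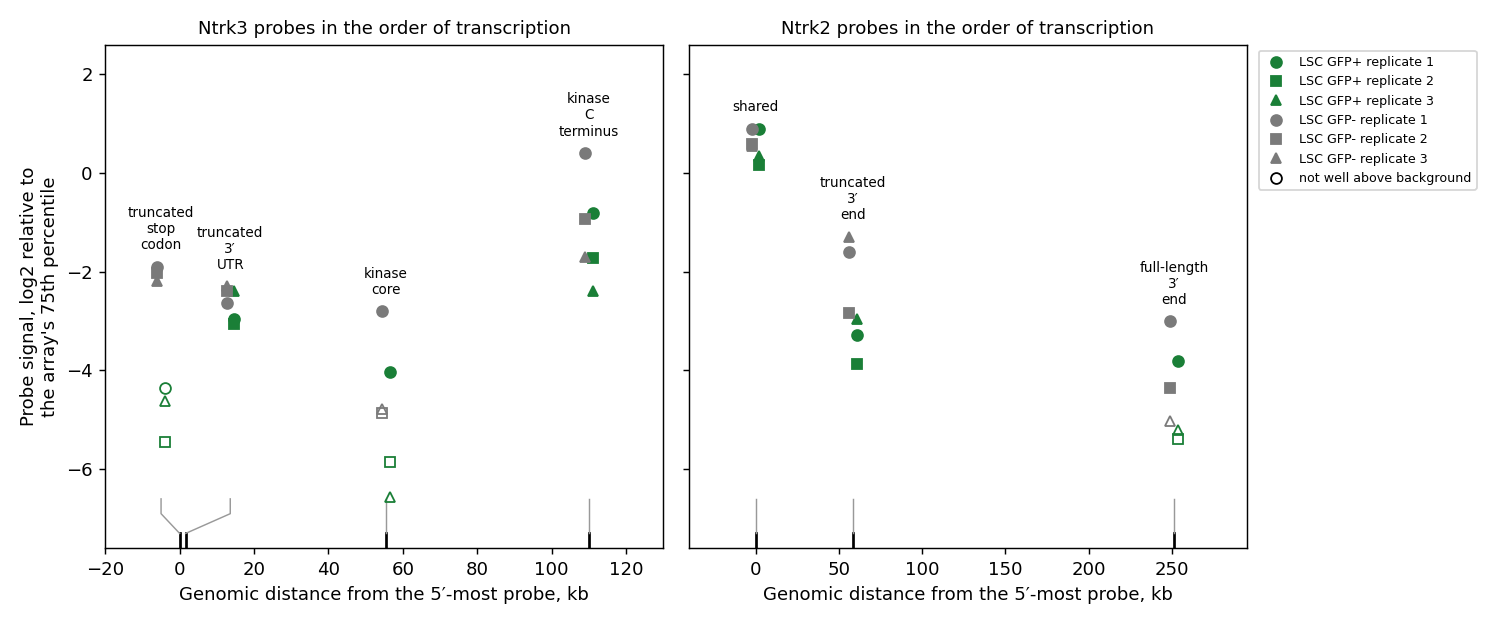
Signal of the Ntrk3 and Ntrk2 probes on each array (log2 relative to the array's 75th percentile) against genomic distance from the 5′-most probe in kb, drawn to scale by the black ticks, with symbols set beside their tick and the truncated Ntrk3 probes spread apart for legibility. Green is LSC GFP+, grey is LSC GFP-, and open symbols are not well above background. The stop-codon probe of Ntrk3 parts the populations, and its neighbour 1607 bases away does not.

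Some marker genes of other cell types were also lower in LSC GFP+ cells, and whether they vary with the truncated-end probes over arrays was not tested. Over the brightest probes of all genes, 4.29% were called lower in LSC GFP+ cells and 3.38% higher. No gene of these marker lists had a limma adjusted p under 0.05. Of 8 smooth muscle genes, 7 were tested and 6 were called lower in LSC GFP+ cells. Acta2, the smooth muscle actin, was at -2.13 (limma adjusted p = 0.14). The summed signal of that list, in multiples of the 75th percentile, ran from 7.05 to 10.6 in LSC GFP+ and from 20.1 to 38.5 in LSC GFP-. Of 8 stromal genes 5 were called lower, and Dcn (decorin), the only 1 with a positive difference, was called higher. Their summed signal ran from 19.4 to 25.7 in LSC GFP+ and from 21.7 to 61.8 in LSC GFP-. Of 5 pericyte genes, 3 were tested and Rgs5 was called lower, at -1.13. The summed signal of the 5 ran from 0.973 to 1.28 in LSC GFP+ and from 1.54 to 2.90 in LSC GFP-. Of 6 endothelial genes, 4 were tested and 1 had a positive difference. Vwf alone was called, lower at -0.82 (limma adjusted p = 0.297), and was well above background on all arrays. The gate is labelled basal, and of 8 basal genes all were measured, all had a positive difference and 5 were called higher in LSC GFP+ cells. By the study's account the gate leaves out stroma and the smooth muscle cells of vessels, and the part of such cells in the Trk receptor signals was not tested. In such bulk samples, fewer cells of a type and less RNA per cell cannot be told apart.

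Ngfr, the p75 receptor that all neurotrophins share, was not called, and a single array set the spread. Its probe (A_52_P236448, chr11:95430211-95430270, minus strand) was printed 10 times on each array, well above background at every spot. Its mean was 1.16, 0.74 and 0.43 in LSC GFP+ replicates 1, 2 and 3 and 1.88, -0.89 and -0.46 in LSC GFP- replicates 1, 2 and 3. LSC GFP- replicate 1 was the highest of the 6 arrays and the other LSC GFP- arrays were the lowest. The SD between spots of an array was 0.026 to 0.0939, far below the SD between LSC GFP- arrays of 1.49. The difference was 0.60 ± 0.66 (SE, n = 3 per population), with a limma adjusted p = 0.996, and by replicate number it was -0.72, 1.64 and 0.89. Without LSC GFP- replicate 1, LSC GFP+ was higher by 1.46 and called (limma adjusted p = 0.323). Without both arrays of replicate 1, a choice made after seeing the data, it was higher by 1.27 and called (limma adjusted p = 0.355). These were the only 2 calls in 16 alternatives. Leaving out LSC GFP- replicate 2 or replicate 3 gave differences of 0.07 and 0.29, neither called.

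LSC GFP- replicate 1 was also the array with the highest signal of several neuronal and neuroendocrine genes. Tubb3, the neuronal beta-tubulin, was at 4.78 there and between 0.0019 and 3.18 on the other arrays. Stmn2, a neuronal stathmin, was at 2.80 against -6.29 to 0.27. Chgb, a granin of neuroendocrine granules, was at 1.64 against -4.10 to -0.20. Over the whole lists, none of the 9 tested of 10 neuronal, the 6 neuroendocrine and the 5 tested of 10 glial genes was called between the populations. The summed neuronal signal ran from 257 to 334 in LSC GFP+ and from 249 to 363 in LSC GFP-, and the bright Snap25 and Elavl4 probes made up most of it. The neuroendocrine sum was 14.5 on LSC GFP- replicate 1 and between 2.01 and 4.73 on the other arrays, and the glial sum ran from 7.31 to 28.0 and from 7.43 to 17.9. The Schwann cell markers Foxd3 and Cdh19 were not well above background on any array. With a replicate block, 4 of the 9 tested neuronal genes (Tubb3, Stmn2, Elavl3 and Prph), 4 of the 6 neuroendocrine genes (Chga, Chgb, Syp and Scg2) and 1 of the 5 tested glial genes (Sox10) were called, all lower in LSC GFP+ cells, against 14.8% of all probes in either direction. Tubb3 differed by -1.30 and Stmn2 by -2.63, with adjusted p = 0.0848 and 0.155 in that limma fit. The part of nerve or neuroendocrine RNA in the Ngfr signal was not tested.

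**Figure D3:**
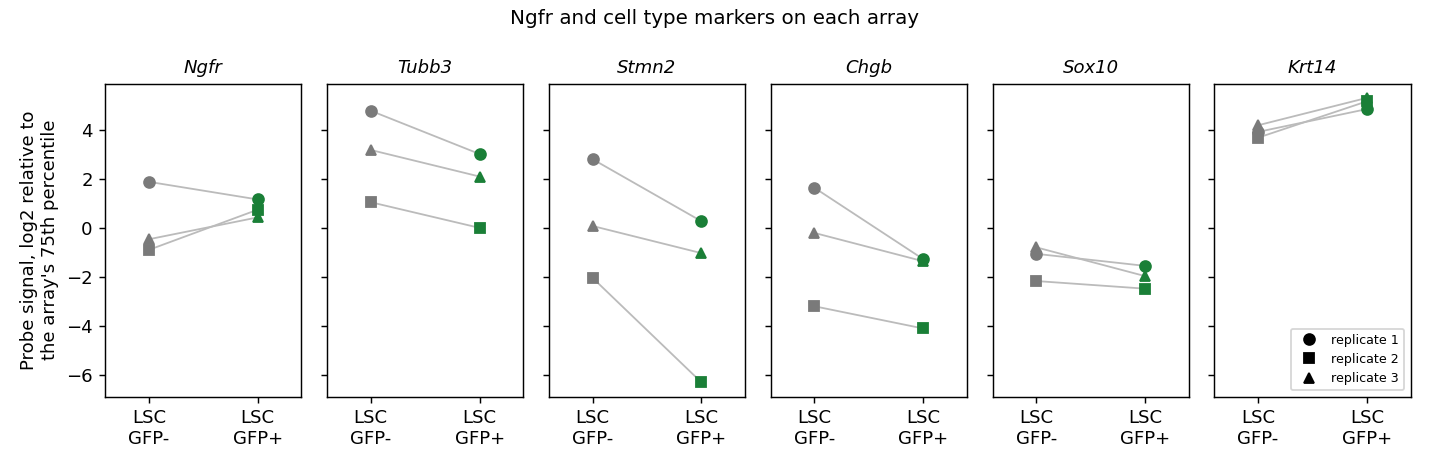
Signal of Ngfr and of markers of neurons (Tubb3, Stmn2), neuroendocrine cells (Chgb), glia (Sox10) and basal cells (Krt14) in LSC GFP- (grey) and LSC GFP+ (green), in log2 relative to the array's 75th percentile, with lines joining arrays of the same replicate number. Ngfr was lower in LSC GFP+ in replicate 1 and higher in replicates 2 and 3, whereas Tubb3 and Stmn2 were lower in all 3.

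Sort1 encodes sortilin, the partner of p75 for proneurotrophins and a sorting receptor of the Golgi, and both of its probes were well above background on all arrays. The probe across a splice junction (A_51_P517145, from 108157150 to 108159198 on chromosome 3) gave 3.1, 3.59 and 3.68 in LSC GFP+ and 3.36, 3.84 and 3.97 in LSC GFP- replicates 1, 2 and 3. LSC GFP+ was the lower array at each replicate number, by -0.27, -0.25 and -0.29, but the ranges overlapped. The difference was -0.27 with a 95% interval from -0.86 to 0.32 (limma adjusted p = 0.988). The 3′ probe (A_52_P590396, chr3:108164349-108164408, plus strand) gave 1.53, 2.26 and 2.05 in LSC GFP+ and 2.17, 2.46 and 2.48 in LSC GFP- replicates 1, 2 and 3. Its difference of -0.43 was not called (limma adjusted p = 0.813), and with a replicate block it was (adjusted p = 0.302). Both Sort1 probes thus gave a small negative difference.

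Beyond the members, 44 genes of neurotrophin processing, co-receptors and signalling adaptors were listed from general knowledge, each read at its brightest probe. Of 40 tested, 2 were called higher and 1 was called lower in LSC GFP+ cells, 7.5%. Over the brightest probes of all genes 7.66% were called (3.38% higher and 4.29% lower), so calls were about as common as over the array. The median difference was 0.06, against -0.0069 over the brightest probes of all genes. The 3 called were Tnfrsf19, Sorcs2 and Nedd4l, and none had an adjusted p under 0.05. With the replicate number in the fit as a block, 6 of the 40 were called, which added Grb2, Rapgef1 and Ripk2 to these 3, and the share of 15% stood against 14.8% of all probes.

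Tnfrsf19, also known as Troy, a relative of p75 that can pair with the Nogo receptor, gave 3.16, 3.39 and 3.01 in LSC GFP+ and 2.34, 2.34 and 2.13 in LSC GFP- replicates 1, 2 and 3. The populations did not overlap and the difference was 0.92 ± 0.20 (SE, n = 3 per population), with a limma adjusted p = 0.173. Sorcs2, a sortilin relative that also binds proneurotrophins with p75, gave -1.01, -1.16 and -1.10 against -1.59, -2.16 and -1.78, again without overlap. Its difference was 0.75 (limma adjusted p = 0.316), whereas that of its relatives Sorcs1 and Sorl1 was -0.06 and -0.10. Nedd4l, a ubiquitin ligase, gave -2.05, -2.01 and -1.69 in LSC GFP+ against -1.09, -1.02 and -0.82 in LSC GFP-, a difference of -0.94 (limma adjusted p = 0.17).

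The remaining 37 tested pathway genes were not called. They included the adaptors that dock on Trk receptors, with differences of -0.06 for Shc1, 0.07 for Frs2 and 0.35 for Plcg1, the phospholipase C gamma whose docking site the TrkC carboxyl-end probe reads. The p75 partners Ngfrap1, Maged1 and Kidins220 differed by 0.02, -0.05 and -0.02. Slitrk5 was well above background on 0 LSC GFP+ and 2 LSC GFP- arrays and was not tested. Sorcs3 and the Nogo receptor genes Rtn4r and Lingo1 were not well above background on any array.

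**Figure D4:**
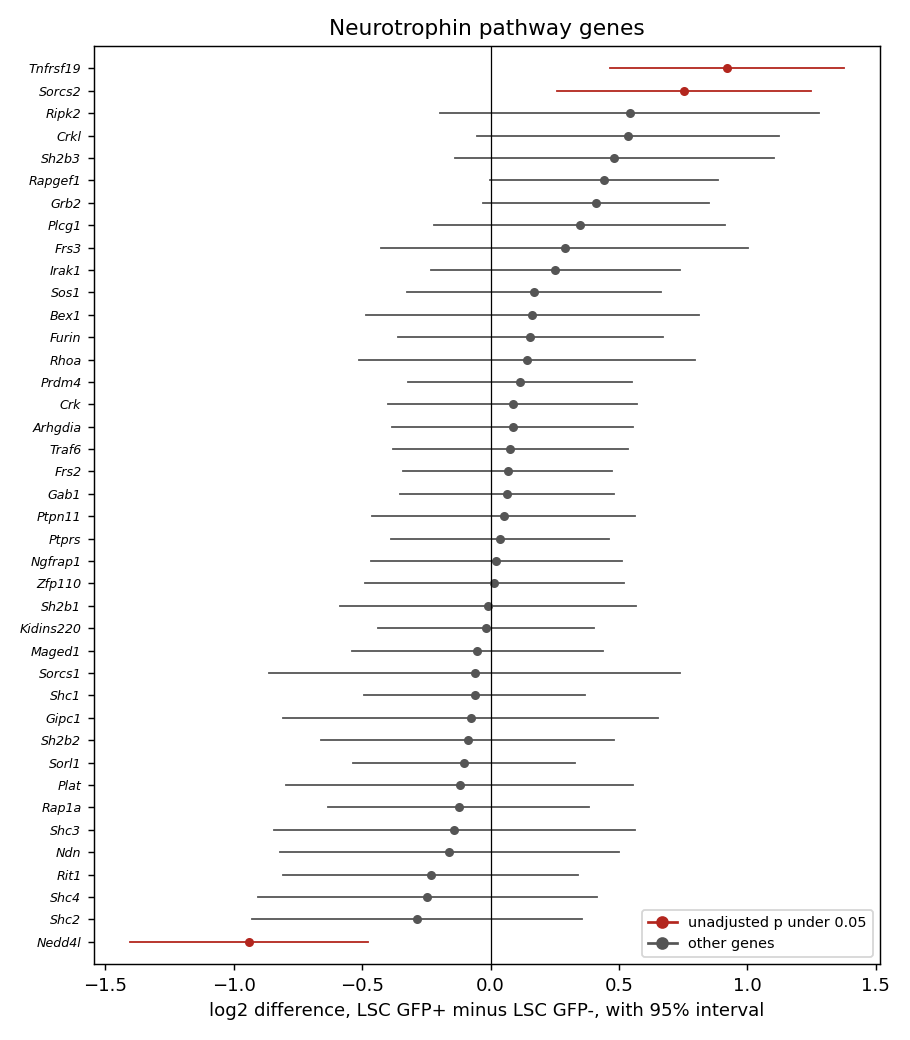
Difference between the populations (LSC GFP+ minus LSC GFP-, log2) for the 40 tested pathway genes, with 95% intervals from the limma fit over 3 arrays per population. Tnfrsf19 and Sorcs2 lie to the right and Nedd4l to the left of 0, and the other 37 genes had an unadjusted p of at least 0.05.

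For each member whose brightest probe was well above background on all arrays, the genes with the most similar signal over the 6 arrays were sought among 23773 genes. Ngfr was most like Krt88 (Pearson r = 0.99), Abat (r = 0.98) and 4930528D03Rik (r = 0.98). Ntf5 was most like Ank3, Nudt3 and Naa15, each with r at or above 0.995. For Ntrk3 the named gene was Stmn4, a stathmin (r = 0.988), beside transcripts without a gene symbol. Cryba4 and Slc35c1 were most like Bdnf, Lrrc36 and Gm15217 most like Ntrk2, and Dok1 and Dnajc10 most like Sort1, each named beside 1 transcript without a symbol. With 6 arrays and so many genes searched, values near 1 are described and not tested. The arrays share a slide, a scan and the labelling.

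All 6 arrays were of like quality. Between 36651 and 42123 of the 55681 probes were well above background on an array, no spot was saturated, and arrays correlated at r = 0.963 to 0.979 over probes.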

How the data were processed

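Total RNA of both sorted populations was amplified with the Ovation Pico WTA kit, labelled with Cy3 and hybridised by the authors to one-colour SurePrint G3 Mouse arrays, 3 per population. The deposited intensity values are processed signals of Feature Extraction, version 11.0.1.1 per the file headers and 10.7.3.1 per the submitters' processing notes, background-subtracted and not normalized between arrays. The table of the whole series holds the same signals rounded to 3 significant digits. All arrays came from 1 slide and 1 scan time, so no batch could be compared. Amplification and labelling can weight the parts of a transcript unequally, which bears on comparisons between probes.

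From the deposited intensity values, log2 signals minus the array's 75th percentile were computed, outlier spots (123 to 154 per array) were left out and the spots of a probe were averaged. The linear model of limma 3.58.1 (R 4.3.3), with eBayes moderation, no covariate and two-sided tests, was fitted over 37005 probes, and a probe was called at an unadjusted p under 0.05. For single probes the text gives the Benjamini-Hochberg adjusted p and an exact permutation p. The methods name Student's test, so the methods' t-test was run as an alternative, beside other scalings, filters, normexp with an offset of 50 and a replicate block. A gene on a list stood for its brightest probe. For a probe dim on every array of 1 population, the fold is a lower bound, taken against the lowest signal well above background on each array or the probe's own signal if higher. The fit was tested on simulated data. The number of arrays limits the precision.

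Deviations from the population means correlated between arrays with the same replicate number in the labels. Over probes, r was 0.433, 0.277 and 0.668 for replicates 1, 2 and 3, all above the threshold of 0.1. LSC GFP+ replicate 1 with LSC GFP- replicate 2 also passed it, at r = 0.223, and the other unmatched pairs had negative r. The pairing entered only the replicate block and the differences by replicate number, and the main fit ignored it. The sources used here do not state a pairing. Blocked results stand beside the member, pathway and marker results whose calls they change.

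The members, gene lists and alternatives were chosen with earlier results of these data known. By the rule for named genes, every member probe, the called genes of the pathway list, markers beside a member result and the 3 genes most like each member were named. Some genes of the pathway are not reported here. Other pathway genes were chosen for their roles, and the markers named singly were chosen after their values were seen. Symbols were matched by accession to a RefSeq table of GRCm38.p6 for 26582 of 55681 probes, for names only. Probe positions are those of the array design in mm9, and probe sequences were copied from the deposited files.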

Additional observations from a re-analysis of the deposited data

How the results depend on the processing

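Over 16 alternatives the Ntf5 difference lay between 0.51 and 0.76 and was called in 12, and that of the truncated Ntrk2 end lay between -1.93 and -0.79 and was called in 14. The stop-codon probe of Ntrk3 was called in all 15 alternatives it could enter and passed adjustment under quantile normalization alone (adjusted p = 0.0284). It had no value where probes had to be well above background on all arrays. Bdnf changed sign, at -0.022 under normexp, -0.24 without LSC GFP+ replicate 1, -0.33 without LSC GFP- replicate 3 and -0.07 without both arrays of replicate 1, and reached 0.18 without LSC GFP- replicate 2, and was called in none. Averaging the tested probes of a gene gave -0.84 for Ntrk2 and -1.34 for Ntrk3, both called, with limma adjusted p = 0.424 and 0.129. Each mean joins the called truncated-end probe with probes that were not called, so it does not show a change of the whole gene. With the replicate block, 5480 probes, 5 member probes and 6 pathway genes were called, against 2925, 3 and 3, and no probe passed adjustment. Beside the calls named in the report, the block changed no other member call. Leaving out 1 array gave 2283 to 4061 probes, 2 to 4 member probes and 3 to 5 pathway genes. The pathway count was 5 under normexp, quantile normalization, the methods' t-test and limma's intensity trend. The contrast of the kinase carboxyl end and the truncated 3′ UTR of Ntrk3 ranged from -1.08 to 0.14 when 1 array was left out, turning positive without LSC GFP+ replicate 3 (0.06) and without LSC GFP- replicate 1 (0.14), and that of Ntrk2 from 0.03 to 1.19. The median of all probes moved by less than 0.1 under every scaling. Dim probes such as Ntf3 and the Ntrk3 kinase core limit what can be said of those transcripts.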
